A study of Mus musculus with 2 samples.

Results

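The genes described are 10 that mark oligodendrocyte precursor cells or the oligodendrocyte lineage, chosen by name: Pdgfra, Cspg4, Olig1, Olig2, Sox10, Vcan, Tnr, Lhfpl3, Bcas1 and Nkx2-2, of 21938 protein-coding genes in the GENCODE M21 annotation of the mouse. All 10 were found in it. Chromatin that the nuclease DNase I can cut was mapped by DNase-seq in hippocampal tissue of female B6CASTF1/J mice at 25 days of age. That strain is the hybrid offspring of a C57BL/6J and a CAST/EiJ parent. The tissue type was labelled as a layer of the hippocampus with the layer not named, and all samples formed 1 group: 2 libraries, labelled as biological replicates 1 and 2 and carrying the same donor entry. With no treatment, engineered allele or second group there was nothing to test between conditions, and the spread between the libraries may be technical in part. In whole tissue, fewer cells with an open site and a site less open in each cell cannot be told apart.

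Oligodendrocyte precursors are dividing glia found throughout the grey and white matter of the brain, which give rise to the cells that wrap axons in myelin. Their division is driven by platelet-derived growth factor, which binds the receptor encoded by Pdgfra, and their identity rests on a set of DNA-binding factors, among them Olig1, Olig2, Sox10 and Nkx2-2. In a young animal myelination is under way, and precursors are a minority of hippocampal cells. Several of the 10 genes are also known from other cells of this tissue: Pdgfra from fibroblasts of the meninges and vessels, Cspg4 from pericytes, and Tnr and Vcan from neurons.

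Each library came with a stricter and a longer peak list, footprints (short stretches protected from the nuclease within open chromatin) and a false discovery rate (FDR) of the cut rate for each base. The stricter lists held 61466 peaks in replicate 1 and 50379 in replicate 2, and the longer lists 104506 and 91751. Footprints numbered 236942 and 159538. The signal of a peak is the value deposited with it, whose scaling is not stated. The median signal over the stricter list was 1.44 in replicate 1 and 0.803 in replicate 2, so every value is given for both libraries, and ratios between them are descriptions of the deposited values. Depth is unknown, since the files used hold no tag counts. A promoter counted as open when the stricter list of each library held a peak no more than 500 bp from an annotated start.

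Promoters were open in both libraries for 4 of the 10 lineage genes, Pdgfra, Vcan, Tnr and Lhfpl3, against 54.2% of all protein-coding genes. A stricter peak was present in replicate 1 alone at Olig1 and Bcas1, which brought its count to 6 of 10 genes (60.2% of all genes in that library), while replicate 2 had 4 of 10 (54.8% of all genes). In the longer lists 7 of 10 promoters had a peak in both libraries, with Olig1, Olig2 and Bcas1 added (59.7% of all genes). Replicate 1 had 8 of 10 in its longer list (64.9% of all genes), with Cspg4 as the eighth, and replicate 2 had 7 (60.4%). Sox10 and Nkx2-2 had no promoter peak in any list. The peaks of the 4 open promoters overlapped between the libraries in each case, as they did for 54.1% of all genes. Of the 4 transcription factors among the 10 genes, none had a stricter promoter peak in both libraries. Among 27 other factors of the lineage, taken up below, 17 had one, against 54.2% of all genes. The 4 open promoters belonged to a growth factor receptor, 2 extracellular matrix proteins and a membrane protein.

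The receptor gene Pdgfra had the highest promoter signal of the 10 genes in replicate 1, at 4.13, and 1.34 in replicate 2. Those values lay at percentiles 52.6 and 32.0 among the protein-coding genes with a stricter promoter peak in that library. Over the genes open in both libraries the medians were 4.30 and 1.80. The peaks did not lie at the outermost start. They spanned 75156281 to 75156460 on chromosome 5 in replicate 1 and 75156261 to 75156460 in replicate 2, centred 4.07 kb into the gene, and overlapped an annotated UTR. The nearest starts were those of the internal transcripts Pdgfra-202, at 75155899, and Pdgfra-209, at 75156833. The 4 outermost starts, at 75152292, 75152306, 75152352 and 75152935, had no peak within 500 bp in either list of either library. Outside that window, a region centred 0.927 kb before the outermost start had a stricter peak of 1.61 in replicate 1. In replicate 2 it had a peak of the longer list only, at 0.458. The call therefore rested on internal starts, and with a window of 250 bp it was lost. Replicate 2 had a further peak of signal 0.953 from 75157161 to 75157320, without a partner in replicate 1.

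Cspg4 encodes NG2, the proteoglycan by which precursors are commonly stained, and had a promoter peak in 1 list only. A single peak of the longer list of replicate 1, from 56865041 to 56865134 on chromosome 9, had a signal of 0.728, and replicate 2 had none. No base reached an FDR of 0.001 in either library, and the lowest FDR in replicate 1 was 0.0223.

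Vcan encodes versican and Tnr tenascin-R, matrix proteins that surround neurons and glia. Vcan had signals of 1.52 in replicate 1 and 1.01 in replicate 2, at percentiles 16.2 and 19.9. Both peaks lay at the start of the transcript Vcan-209, at 89740397 on chromosome 13, which is not in the basic annotation. At the outermost starts the peaks were weaker, at 0.676 in replicate 1 and 0.443 in replicate 2, and they did not overlap each other. Tnr had signals of 2.37 in replicate 1 and 1.39 in replicate 2, at percentiles 28.2 and 34.2. Its peaks lay at the outermost start, 159523769 on chromosome 1, where the region from 159523601 to 159523920 had 2.02 and 1.39. A second region, from 159524141 to 159524360, had 2.37 and 0.645. In both libraries, then, Tnr was open at its own outermost start, whereas the strongest Vcan and Pdgfra peaks lay at internal ones.

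Lhfpl3, a membrane protein gene of the LHFPL family used as a precursor marker in single-cell studies, was open at its outermost start, 22746059 on chromosome 5. The open region there also overlapped an exon of A930003O13Rik and an intron of 6030443J06Rik. The signal was 0.904 in replicate 1 and 0.533 in replicate 2, at percentiles 5.60 and 3.65, which made it the weakest of the 4 open promoters in each library. Bcas1, a marker of oligodendrocytes that are beginning to myelinate, had 0.713 in replicate 1 at percentile 2.80, and a peak of the longer list alone in replicate 2, at 0.405. These peaks lay at an internal start, 170406509 on chromosome 2, 21.3 kb into the gene. The region that the longer lists share there also overlapped an exon of Bcas1os1. The longer list of replicate 1 had a further peak from 170356780 to 170356920, with a signal of 0.699, near the internal start at 170357113. No list had a peak at the outermost start.

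Olig1 and Olig2, the basic helix-loop-helix factors of the lineage, are neighbours whose starts lie 44.3 kb apart on chromosome 16. The Olig1 start had a stricter peak in replicate 1, from 91269561 to 91269840, with a signal of 1.69. Replicate 2 had a peak of the longer list there, with a signal of 0.810. The lowest FDR of a base in that promoter was 0.00112 in replicate 2, just short of the 0.001 that each stricter peak reaches. Olig2 had peaks of the longer lists only, with a highest signal of 1.46 in replicate 1 and 0.443 in replicate 2, and lowest FDRs of 0.00416 and 0.0128. Sox10, an HMG-box factor required for oligodendrocyte differentiation, and Nkx2-2, a homeodomain factor that acts as precursors differentiate, had no peak, no footprint and no listed base at any of their 4 starts each in either library.

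**Figure D1:**
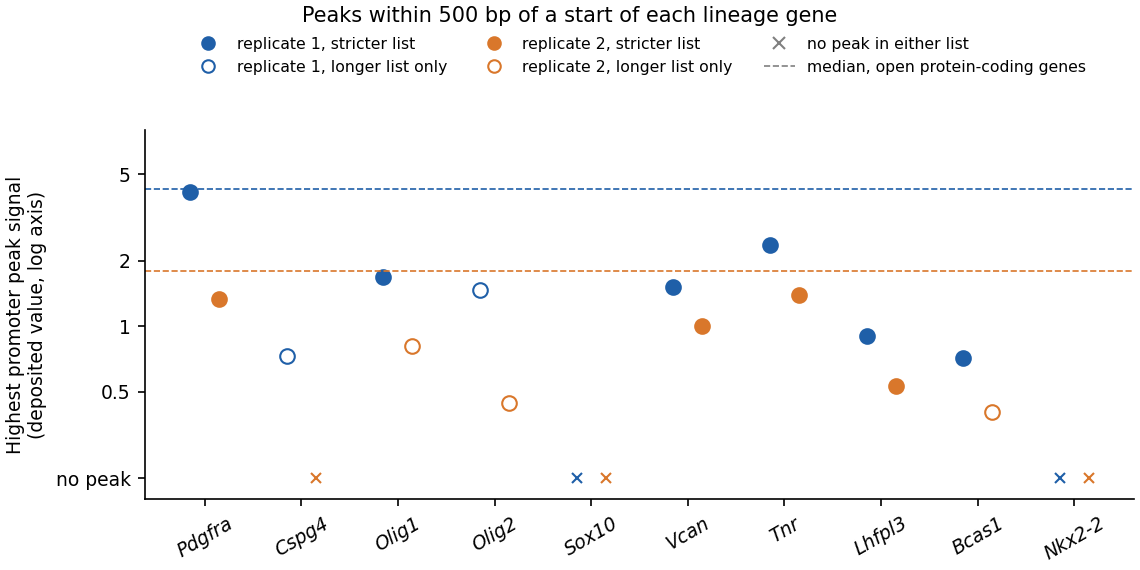
Highest deposited peak signal within 500 bp of any start of each lineage gene (log axis) in replicate 1 (blue) and replicate 2 (orange). Filled points are peaks of the stricter list, open points peaks found only in the longer list, crosses mark no peak, and dashed lines are the medians over open protein-coding genes, 4.30 and 1.80. All points lie below the line of their library.

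The promoter sequences below, from the RefSeq promoter table on GRCm38.p6, are shown for promoters with and without a peak. The table matched 7 of the 10 genes, and bases past a GENCODE start were left off. Capitals mark matches to a fixed set of motifs searched on both strands: ACAANG (SOX), CAGCTG (E-box), AGGGGGC (a core of the CTCF site), CACTTNA (NK2) and GGGCGG (GC box). Tnr and Lhfpl3 were open at the start shown, and Pdgfra and Nkx2-2 had no peak at it. For Nkx2-2 the start shown is 147186404 on chromosome 2.
Tnr promoter, chr1:159523519-159523768, plus strand: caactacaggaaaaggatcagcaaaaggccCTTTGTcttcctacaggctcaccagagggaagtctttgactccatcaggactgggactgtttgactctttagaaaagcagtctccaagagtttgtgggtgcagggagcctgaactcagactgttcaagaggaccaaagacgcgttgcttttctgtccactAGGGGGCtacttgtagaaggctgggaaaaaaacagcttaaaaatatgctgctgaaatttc
Lhfpl3 promoter, chr5:22745804-22746053, plus strand: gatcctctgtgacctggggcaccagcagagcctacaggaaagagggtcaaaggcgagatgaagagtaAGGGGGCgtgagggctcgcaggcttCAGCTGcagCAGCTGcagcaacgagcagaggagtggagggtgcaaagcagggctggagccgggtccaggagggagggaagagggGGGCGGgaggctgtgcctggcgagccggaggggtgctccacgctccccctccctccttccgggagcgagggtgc
Pdgfra promoter, chr5:75152001-75152250, plus strand: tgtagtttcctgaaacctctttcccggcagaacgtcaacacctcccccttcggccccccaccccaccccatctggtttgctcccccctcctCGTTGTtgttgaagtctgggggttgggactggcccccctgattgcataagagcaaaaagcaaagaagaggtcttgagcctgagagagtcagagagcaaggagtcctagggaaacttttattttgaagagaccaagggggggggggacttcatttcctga
Nkx2-2 promoter, chr2:147186405-147186652, minus strand: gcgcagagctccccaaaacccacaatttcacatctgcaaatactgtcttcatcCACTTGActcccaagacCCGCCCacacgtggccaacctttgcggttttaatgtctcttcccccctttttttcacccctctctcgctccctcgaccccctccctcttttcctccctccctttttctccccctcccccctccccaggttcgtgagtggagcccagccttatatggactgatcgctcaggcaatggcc

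The Tnr promoter held matches to the SOX motif, present in 33.7% of 21262 protein-coding promoters of 250 bases, and to AGGGGGC, present in 11.6%. Lhfpl3 held CAGCTG, in 12.1% of promoters, AGGGGGC and a GC box, in 42.6%. Pdgfra held a SOX match and Nkx2-2 an NK2 match, in 9.40% of promoters, and a GC box. These matches are letters in a window, not sites.

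The observed to expected CpG ratio was computed for the 1000 bp centred on the outermost start, which is not where the strongest Pdgfra, Vcan and Bcas1 peaks lay. It was 0.811 for Olig1, 0.755 for Olig2, 0.650 for Lhfpl3 and 0.626 for Nkx2-2. In the deciles of this ratio that hold those genes, 91.2%, 88.1%, 73.6% and 73.6% of protein-coding genes were open, and of the 4 genes Lhfpl3 alone was. Sox10, at 0.166, and Bcas1, at 0.174, fell in a decile in which 9.57% were open. Pdgfra, at 0.397, and Tnr, at 0.327, were open in a decile in which 29.6% were, and Cspg4, at 0.365 in the same decile, was not. Vcan, at 0.547, was open in a decile in which 54.9% were. Whether the calls follow this ratio was not tested on 10 genes. The number of annotated starts also differed, and a gene with more starts has more windows in which a peak can lie. Pdgfra and Vcan had 9 starts each, and 89.3% of protein-coding genes with 9 or more were open, and Tnr, also open, had 5, for which the share was 72.2%. Lhfpl3 was open with 2 starts, for which it was 33.4%. Of the genes not open, Bcas1 had 7 starts and Sox10 and Nkx2-2 4 each, and the shares for 7 and 4 starts are not given here. Cspg4 had 3 starts, for which 51.9% of genes were open. Olig1 and Olig2 had 1 start each, and 23.9% of such genes were open.

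The cut rate was also read base by base. Bases at an FDR of 0.001 or less were present in 6 of 10 promoters in replicate 1 (60.9% of all genes) and in 4 of 10 in replicate 2 (55.9%). Vcan had 1068 bases in replicate 1 and 1011 in replicate 2, the most of the 10 genes in each. Tnr had 631 and 639, Pdgfra 272 and 510, and Lhfpl3 558 and 252. The medians over open protein-coding genes were 705 bases in replicate 1 and 629 in replicate 2. Olig1 had 331 bases in replicate 1 and 0 in replicate 2, and Bcas1 had 80 and 0. Pdgfra, the gene with the highest signal in replicate 1, had more bases in replicate 2. Bases at an FDR up to 0.05 were listed for 8 genes in replicate 1 (65.7% of all genes) and 7 in replicate 2 (61.7%), including 406 and 136 for Olig2 and, in replicate 1 alone, 91 for Cspg4.

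**Figure D2:**
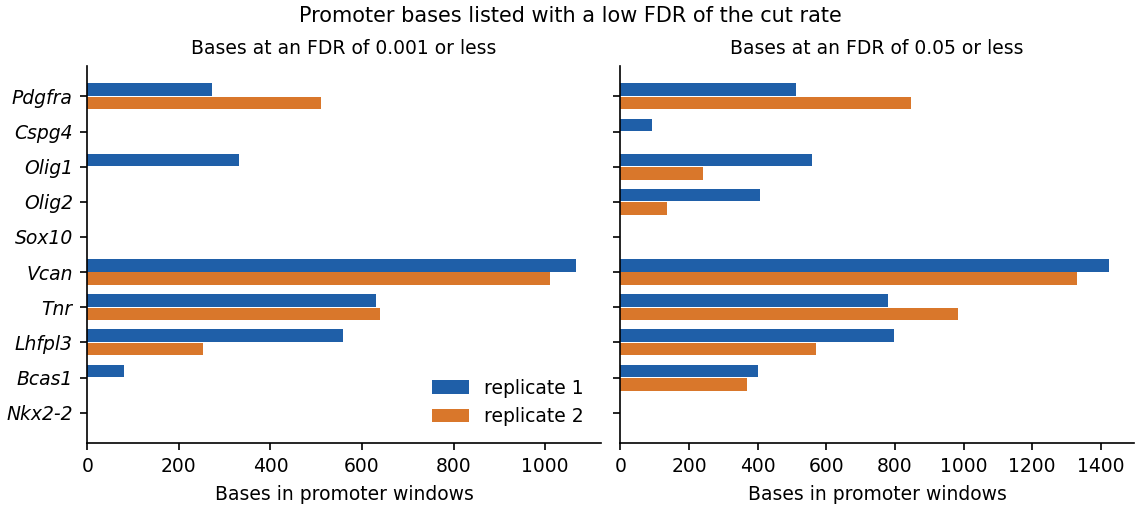
Number of promoter bases at an FDR of the cut rate of 0.001 or less (left) and 0.05 or less (right) for each lineage gene, in replicate 1 (blue) and replicate 2 (orange). Vcan has the most bases in each panel, and Sox10 and Nkx2-2 have 0 in each.

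Footprints shared by both libraries, at 50% of the shorter footprint, lay in the promoters of 3 of the 10 genes, against 49.6% of all protein-coding genes. Tnr had 4, Pdgfra 2 and Vcan 1, for 7 in all, and the median over open protein-coding genes was 2. Any footprint was present in 8 promoters in replicate 1 (63.2% of all genes) and in 5 in replicate 2 (57.5%). Lhfpl3 had 5 footprints in replicate 1 and 1 in replicate 2, none of them shared. Olig1 had 5 and Olig2 2 in replicate 1, against 0 each in replicate 2.

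Outside promoters, every one of the 10 genes had at least 1 distal open region of both libraries within its gene body or 50 kb on either side, which held for 72.3% of protein-coding genes. Distal regions are shared regions that touch no window of 500 bp around the starts of coding and long noncoding genes. There were 26, of which 13 lay in the gene itself, 5 only in another gene and 8 in no gene. Bcas1 had 6, Cspg4 5, Pdgfra and Tnr 3 each, Sox10, Vcan and Nkx2-2 2 each, and Olig1, Olig2 and Lhfpl3 1 each. Having 3 or fewer held for 8 of the 10 genes and for 83.8% of all genes. Per 100 kb, Cspg4 had 3.71 and Bcas1 3.32, at percentiles 94.0 and 91.7 of protein-coding genes. Lhfpl3 had 0.159 and Tnr 0.591, at percentiles 27.8 and 31.7, in surroundings of 630 and 508 kb. The median over the 10 genes was 1.39, and over all protein-coding genes 0.955. The 2 genes with the densest surroundings were thus 2 without an open promoter, and the longest genes, Lhfpl3 and Tnr, were open at their promoters and had the fewest distal regions per 100 kb. In number, the 3 of Tnr were above the median of 1 over protein-coding genes, and in the longer lists Tnr had 12, the most of the 10 genes.

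**Figure D3:**
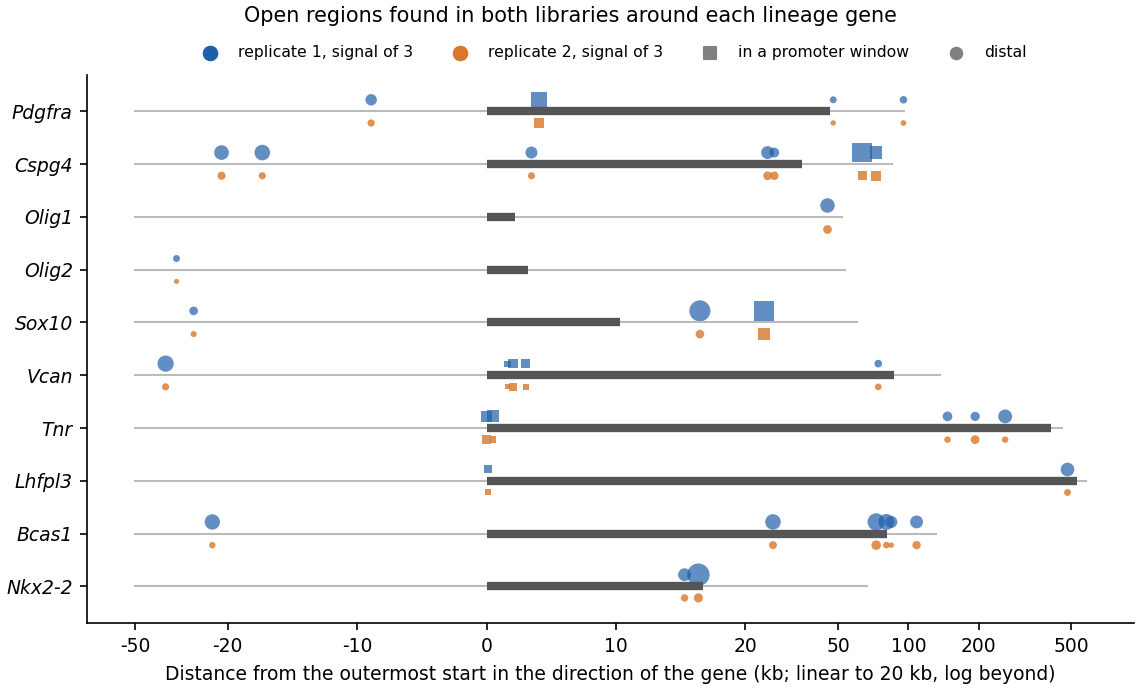
Shared regions around each lineage gene by distance from its outermost start in the direction of the gene (kb; linear to 20 kb and logarithmic beyond), with replicate 1 above the line and replicate 2 below. Thick bars are gene bodies, circles distal regions and squares regions in a promoter window of any gene, and symbol area grows with signal. In replicate 1 the largest distal circles are those of Nkx2-2 and Sox10, with 8.29 and 7.29, and in replicate 2 the largest is that of Bcas1, with 1.51.

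The sequences of 6 of these regions, read from GRCm38.p6, the build called mm10, are printed as examples. Each held bases in a shared footprint and a match to a motif sought below, but not every such region is printed. None of the 6 held the 12-letter CTCF consensus described below, so the split by that consensus does not rest on them as regions with it. Capitals mark bases that lie in footprints of both libraries. All sequences and motif matches given are those of the reference build, and differences of the CAST/EiJ parent from it were not examined.
Nkx2-2 last coding exon, chr2:147177781-147177980, plus strand: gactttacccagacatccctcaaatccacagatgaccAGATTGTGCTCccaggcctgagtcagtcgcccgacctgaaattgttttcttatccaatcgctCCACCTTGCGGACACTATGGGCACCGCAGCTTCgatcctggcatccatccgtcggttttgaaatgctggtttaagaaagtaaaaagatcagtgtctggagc
Sox10 surroundings, in a Polr2f intron, chr15:79148661-79148860, plus strand: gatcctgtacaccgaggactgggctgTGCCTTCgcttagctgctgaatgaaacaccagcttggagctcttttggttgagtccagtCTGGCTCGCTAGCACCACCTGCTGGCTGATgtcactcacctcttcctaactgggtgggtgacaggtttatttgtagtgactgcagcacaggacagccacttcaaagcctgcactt
Bcas1 intron, chr2:170355001-170355160, plus strand: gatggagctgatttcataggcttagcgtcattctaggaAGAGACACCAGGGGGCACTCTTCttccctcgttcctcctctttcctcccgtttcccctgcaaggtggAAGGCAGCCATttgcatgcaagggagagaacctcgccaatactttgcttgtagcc
Before Cspg4, chr9:56843681-56843900, plus strand: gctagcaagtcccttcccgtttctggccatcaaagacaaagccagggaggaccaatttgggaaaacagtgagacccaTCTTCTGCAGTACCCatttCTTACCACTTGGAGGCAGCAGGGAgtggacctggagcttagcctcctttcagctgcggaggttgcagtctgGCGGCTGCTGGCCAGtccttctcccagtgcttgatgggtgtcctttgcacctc
Lhfpl3 intron, chr5:23225181-23225380, plus strand: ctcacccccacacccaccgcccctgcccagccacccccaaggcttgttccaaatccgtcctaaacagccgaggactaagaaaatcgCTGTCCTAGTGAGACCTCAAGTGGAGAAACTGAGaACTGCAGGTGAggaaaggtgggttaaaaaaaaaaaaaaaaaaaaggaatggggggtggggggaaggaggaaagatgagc
Vcan intron, chr13:89668141-89668320, plus strand: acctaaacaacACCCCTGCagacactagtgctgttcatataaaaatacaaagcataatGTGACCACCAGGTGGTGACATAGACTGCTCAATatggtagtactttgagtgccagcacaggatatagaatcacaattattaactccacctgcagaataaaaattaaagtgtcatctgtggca

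In replicate 1 the 2 strongest distal regions of the 26 lay around the 2 genes without any promoter peak, whereas in replicate 2 the strongest was the Bcas1 region printed above. Nkx2-2 had a region of signal 8.29 in replicate 1 and 1.39 in replicate 2 near the end of the gene, 8.22 kb from its nearest own start. That region overlapped annotated coding sequence, and how much of it is coding was not determined. The second Nkx2-2 region, from 147178861 to 147179040, lay in an intron and had 2.72 and 0.908. The surroundings of Sox10 had a region of 7.29 and 1.23, but it lay in an intron of Polr2f, an RNA polymerase subunit gene, 1.05 kb from a Polr2f start and 15.7 kb from the nearest Sox10 start. The other Sox10 region, from 79193081 to 79193360 in an intron of Gm10863, had 1.24 and 0.615. Position alone does not show which gene a region acts on.

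The strongest Bcas1 region, printed above, had 4.93 in replicate 1 and 1.51 in replicate 2, and lay in an intron 1.28 kb from a start of Bcas1os2. Another intronic region, from 170401501 to 170401700, had 3.97 and 1.04, and one past the end of the gene, from 170319241 to 170319500, had 2.74 and 1.15. For Cspg4, the printed region 21.2 kb before the start had 3.54 and 1.10. Next came an intronic region from 56889821 to 56890020, with 2.74 and 1.25, and a region 17.3 kb before the start, with 4.01 and 0.855. The promoter of Cspg4 itself had no stricter peak, so the open chromatin of its surroundings lay elsewhere.

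Pdgfra had a region 8.91 kb before its outermost start, from 75143291 to 75143465, with 2.15 in replicate 1 and 0.870 in replicate 2. Its 2 other regions were weak, at 0.934 and 0.540 for the one from 75247421 to 75247608 and at 0.779 and 0.480 for the one from 75199763 to 75200014. Vcan had 4.34 and 0.833 at a region 36.9 kb before its start, in an intron of Xrcc4, and 0.971 and 0.735 at the printed intronic region. The 3 Tnr regions were all intronic. The one from 159717023 to 159717417 had 1.42 and 1.27, the one from 159783981 to 159784140 had 3.18 and 0.683, and the one from 159670806 to 159671160 had 1.55 and 0.705. The Lhfpl3 region, 479 kb into the gene, had 3.07 and 0.780. Olig1 had 3.46 and 1.25 at a region 44.6 kb past its start, from 91314241 to 91314420 in an intron of Gm15966. Olig2 had 0.794 and 0.435 at a region 33.4 kb before its start, from 91191920 to 91192107, the weakest in replicate 2 of all 26.

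Signals at the distal regions were higher in replicate 1 than in replicate 2 at 26 of 26, as they were at 94.9% of all 21815 distal regions. The log2 ratio of replicate 1 to replicate 2 had a median of 1.55 over the 26, between 0.16 at a Tnr region and 2.58 at the Nkx2-2 exon, and a median of 1.22 over all distal regions. It was above that median at 17 of the 26. The median signals were 2.74 and 0.844 at the 26 regions, against 1.98 and 0.855 at all distal regions, so the regions of the lineage genes were the higher in replicate 1 and about equal in replicate 2. The median over all stricter peaks was itself higher in replicate 1, at 1.44 against 0.803, and the part of such a library-wide difference was not tested.

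A footprint lay in 26 of the 26 regions in replicate 1 and in 25 in replicate 2, for which no share over all distal regions was computed. A shared footprint lay in 22 of the 26, against 81.1% of all distal regions. The longest footprint of replicate 1 had a median length of 31 bp at the 26 regions and 28 bp at all distal regions. It was 25 bp or longer at 20 of the 26, or 76.9%, and at 58.5% of all. The log2 ratio between the libraries went with this length: its median was 1.82 at those 20 regions and 0.94 at the other 6, against 1.79 and 0.60 over all distal regions. The length limit was chosen after the values were seen. Replicate 1 also supplied both the footprint length and the numerator of the ratio, so they are not independent measures.

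Of the motifs sought in 200 bp around the centre of each region, ACAANG (SOX) was in 9 of the 26 regions, or 34.6%, and in 34.4% of all distal regions. CAGCTG was in 5, or 19.2%, against 17.5% of all, and CACTTNA (NK2) in 3, or 11.5%, against 8.63%. CATATG, an E-box that Olig2 is known to bind, was in 0 of 26, against 4.34% of all, and TTGGCA, the NFI element, was in 1, against 17.4%. AGGGGGC was in 4, or 15.4%, against 13.0% of all, and the GC box in 4, or 15.4%, against 10.5%. TGANTCA, the AP-1 element, was in 2, or 7.69%, against 6.89%, and GGAATG, the TEAD element, in 1, or 3.85%, against 11.0%. A 12-letter consensus of the site of CTCF, a factor that organises chromatin loops, can overlap AGGGGGC and was chosen after the data were seen. It was in 9 of the 26, against 33.2% of all distal regions, and lay in a shared footprint in 6 of the 9. How often it does so over all distal regions was not computed. Over all distal regions the median log2 ratio between the libraries was 1.83 with this consensus and 0.93 without it. Over the lineage regions it was 1.30 at the 9 with it and 1.69 at the 17 without. The regions without it include Bcas1 ones that hold AGGGGGC in a shared footprint, with log2 ratios of 1.71 (the printed region) and 2.51. The split thus does not separate regions with a CTCF site from those without one.

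**Figure D4:**
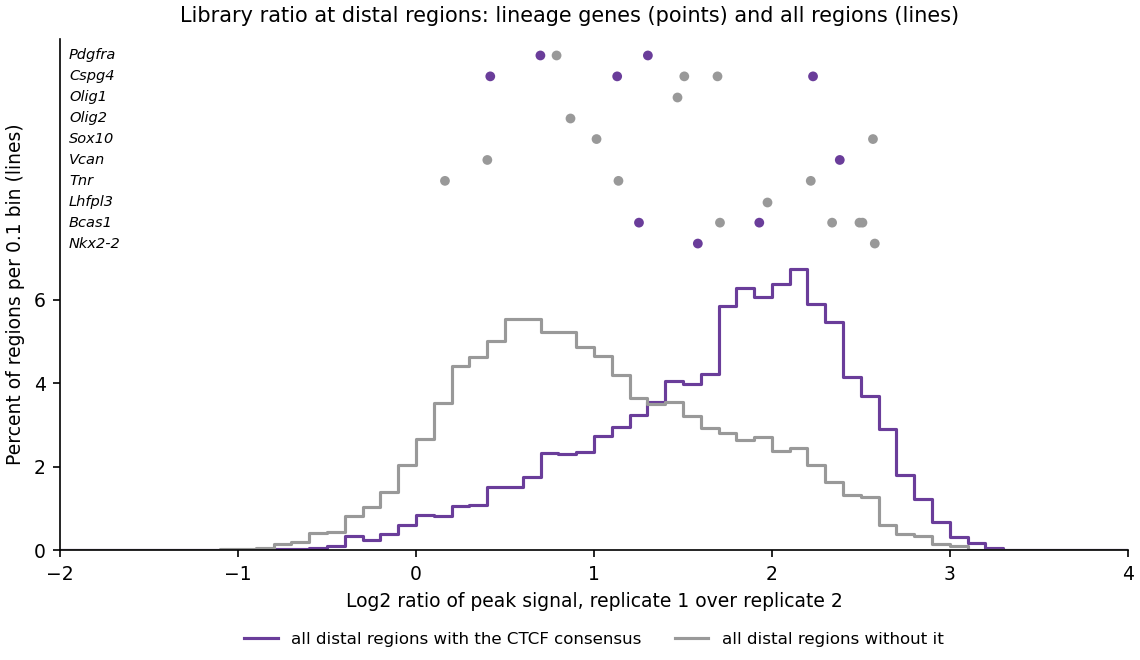
Log2 ratio of peak signal, replicate 1 over replicate 2, at the 26 distal regions of the lineage genes (points, 1 row per gene) and at all distal regions (lines, percent of regions per bin of 0.1). Purple marks regions with the 12-letter CTCF consensus and grey those without it. Purple and grey points overlap, whereas the purple line has its bulk right of the grey line.

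Peaks of a single library were common around the 10 genes. Replicate 1 had 68 distinct stricter peaks there, of which 37 overlapped a stricter peak of replicate 2, 14 a peak of its longer list only and 17 none. Over the whole library, 62.9% of peaks overlapped a stricter peak of replicate 2 and 20.1% overlapped none. Replicate 2 had 50 peaks around the genes, of which 37 overlapped a stricter peak of replicate 1 and 7 overlapped none, and over its whole library the shares were 76.0% and 12.4%. Sox10 had 5 of the 17 peaks that replicate 2 lacked, and Lhfpl3 had 4 of the 7 that replicate 1 lacked.

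Other genes of the lineage and of the remaining cell types gave the setting. Among 27 other factors of the oligodendrocyte lineage, 17 promoters were open in both libraries, and by mean rank over the libraries the first were Tcf3, an E-protein, with 5.92 in replicate 1 and 2.60 in replicate 2, Sox4, with 6.05 and 2.54, and Id2, with 6.15 and 2.51. Id2 had the highest signal of the 3 in replicate 1 and Tcf3 in replicate 2. Among 25 signals and receptors 13 were open, the first by mean rank being the BMP receptor gene Bmpr1a with 4.93 and 1.58, and Pdgfa, whose product is the ligand of the Pdgfra receptor, had 1.84 and 0.833. Among 22 other precursor markers 9 were open, the first by mean rank being Rprm, a cell cycle gene, with 10.2 and 1.97, and Ncan, a brain proteoglycan, with 7.71 and 1.69. In these 3 lists 23, 20 and 17 genes had a promoter peak in the stricter list of replicate 1, or 85.2%, 80% and 77.3%, and 17, 13 and 9 in that of replicate 2, or 63.0%, 52% and 40.9%. Over all protein-coding genes the shares were 60.2% in replicate 1 and 54.8% in replicate 2, and whether the gap in the lists differed from that over all genes was not tested.

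Markers of other cells of the tissue were open in 8 of 10 genes for hippocampal neurons, in 3 of 10 for astrocytes, in 2 of 12 for myelinating oligodendrocytes, in 2 of 10 for microglia and in 0 of 10 for vascular cells, a list that also holds Cspg4. The stricter list of replicate 1 held a promoter peak for 9, 9, 5, 2 and 3 genes of the same lists, and that of replicate 2 for 9, 3, 2, 2 and 0. Over all protein-coding genes, 54.2% were open in both libraries, with 60.2% in replicate 1 and 54.8% in replicate 2. By promoters open in both libraries, the 4 of 10 of the lineage genes lay below the neuronal list and above the other cell type lists. In replicate 1 the astrocyte list, with 9 of 10, lay above the 6 of 10 of the lineage genes. The part of cell numbers in these counts was not tested. The 2 open myelin genes were Myrf, a factor that drives myelination, with 2.75 and 1.04, and Cnp, a myelin enzyme gene, with 2.27 and 0.705.

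**Figure D5:**
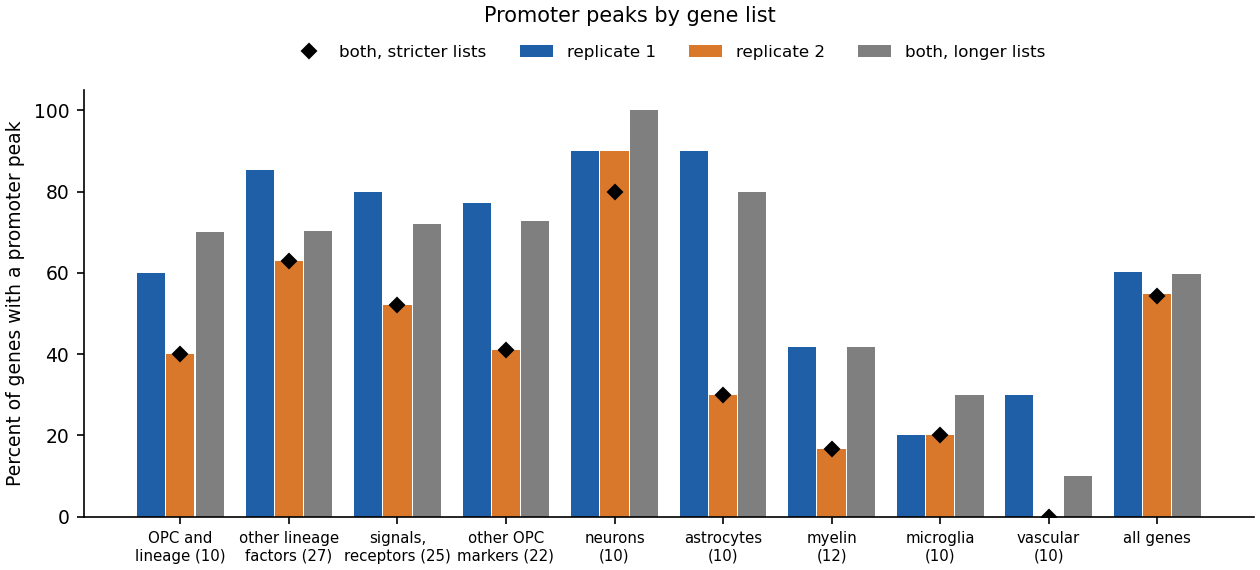
Percent of the genes of each list with a promoter peak in replicate 1 (blue) or replicate 2 (orange) of the stricter lists, and in both longer lists (grey), with a diamond for both stricter lists. The number of genes in each list is in brackets, and all genes are the 21938 protein-coding ones. The lineage genes have 60% and 40% in the stricter lists and 70% in the longer.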

How the data were processed

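DNase-seq was measured in 2 libraries of 1 group, and the authors deposited 4 files for each, on mm10 per the labels. The deposited signal of each peak is used as given; scaling, aligner and peak caller: not given in the sources used here. Signals of a library were multiples of a fixed step (within 0.05 of it), which was 0.00735 in replicate 1 and 0.00750 in replicate 2. The cut rate came with a deposited FDR per stretch of bases, listed up to 0.05. Footprints had a constant deposited FDR of 0.01, so they were not ranked. Depth is unknown and the number of libraries limits the precision. From the files, shared regions were built from overlapping peaks of both libraries (1 bp or more), and counts were taken with Python 3.11.15, numpy 2.4.6, pandas 2.3.3 and pysam 0.24.0, tested on simulated data. Genes were those of GENCODE M21 on GRCm38.p6, mitochondrial genes excluded. No test was run, since there is 1 group. All 10 genes are named, with the 3 best-ranked distal regions of each by mean rank of signal, and genes of other lists only where open in both libraries. The members, lists and motifs were chosen with earlier results of these data known. Alternatives were the longer lists, stronger peaks, other windows, overlaps and transcripts, and leaving out each library.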

Additional observations from a re-analysis of the deposited data

How the results depend on the processing

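The count of open promoters, 4 of 10, became 7 with the longer lists, and lay between 4 (without replicate 1) and 6 (without replicate 2) when a library was left out. It was 3 with the stronger 50% of each list or a window of 250 bp, which lost Lhfpl3 and Pdgfra in turn, 6 with a window of 2000 bp, which added Cspg4 and Bcas1, and 4 with basic transcripts. The 26 distal regions became 55 with the longer lists, 14 with the stronger 50% and 13 in the gene bodies alone, and were 35 without replicate 1 and 48 without replicate 2; 20 kb on either side gave 18, 100 kb gave 35 and an overlap of 50% gave 26. The 7 shared promoter footprints became 11 with a window of 2000 bp, and 20 without replicate 1 and 40 without replicate 2, where footprints of a single library were counted; they were between 5 and 8 otherwise. The median promoter signal of the open genes, 1.57, ranged from 1.17 to 1.94. Each such signal is the mean of both deposited values, and leaving out a library gives the other library's value, such as 1.34 or 4.13 against 2.73 for Pdgfra, which is no check of stability. Among the other settings that gave a value, that of Vcan with basic transcripts moved by more than 1 SD, to 0.560 against 1.26. The CTCF consensus of 12 letters, added after the data were seen, was in 9 regions (33.2% of all distal regions) against 4 with AGGGGGC (13.0% of all). These changes follow from which peaks, bases or libraries each setting counts. No paired analysis was possible because a single group was sampled. With 2 libraries of unknown depth, a promoter without a peak was not detectable as open here, which does not show that it is closed.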

Other observations

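Some of the strongest open regions near the lineage genes belonged to promoters of their neighbours. Near Cspg4, a region at a start of Snx33 had 6.15 in replicate 1 and 1.38 in replicate 2, and a region at Imp3 had 2.55 and 1.64. Near Sox10, the region that holds starts of Polr2f and 1700088E04Rik had 7.13 and 2.31.

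The median log2 ratio of replicate 1 to replicate 2 at distal regions was 2.10 around the microglia genes, 1.76 around the astrocyte genes, 1.72 around the myelin genes, 1.52 around the neuronal genes and 1.51 around the vascular genes. It was 1.09 around the other lineage factors, 1.19 around the signals and receptors and 1.21 around the other precursor markers, against 1.22 over all distal regions. These are descriptions of 2 libraries.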
